A study of Mus musculus with 27 samples.

Results

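The Toll-like receptor genes Tlr1, Tlr2, Tlr3, Tlr4, Tlr5, Tlr6, Tlr7, Tlr9, Tlr12 and Tlr13 were followed through the mouse model of oxygen-induced retinopathy (OIR). These 10 genes were taken by symbol from the 40129 genes of the deposited table, and all 10 passed the filter of a mean of at least 1 normalized read that left 27137 genes for testing. They were selected on the normalized reads and log2 differences of Tlr12 in these mice, since Tlr12 was lower in OIR than in control retinas at p14 and higher at p17. The differences of Tlr12 between groups are therefore described without a test, and those of the other 9 genes were tested. The table also lists Tlr8, but it has no row under the symbol Tlr11, so Tlr11 could not be analysed.

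Wild-type pups, C57BL/6 in the labels and C57BL/6J in the study's methods, were kept in 75% oxygen from day 7 to day 12 and then returned to room air, and their retinas were taken on day 14 (OIR p14, 6 mice) or day 17 (OIR p17, 8 mice). Controls (nOIR) stayed in room air and gave retinas on day 14 (nOIR p14, 7 mice) and day 17 (nOIR p17, 6 mice). Each library holds whole retina, from one or both eyes, of 1 perfused mouse of either sex, and none of the groups carried an engineered allele. The groups came from 3 (nOIR p14), 2 (nOIR p17), 4 (OIR p14) and 3 (OIR p17) litters. The litter of each mouse is not in the labels, so p-values take littermates as independent and treatment cannot be told apart from litter. Mouse S4 of nOIR p14, which the study excluded for its lens genes, was not used, so that group kept 6 mice and the comparisons rest on 26 in all. Per the study's methods, OIR retinas at p14 are widely ischemic with no significant growth of new vessels, which is most extensive at p17. In whole retina, more or fewer cells of a type cannot be told apart from more or less RNA per cell. Xist, a transcript of female cells, was high in 4 of 6 nOIR p14 and 5 of 6 OIR p14 mice used. At p17, it was high in 2 of 6 nOIR and 4 of 8 OIR mice. Sex was thus not balanced over the groups, and the main fit held no term for it. Tlr7, Tlr8 and Tlr13 are on the X chromosome.

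Toll-like receptors are innate immune sensors with a leucine-rich ectodomain and a cytoplasmic TIR domain. Tlr2, which pairs with Tlr1 or Tlr6, binds bacterial lipopeptides, Tlr4 binds lipopolysaccharide together with Ly96 and Cd14, and Tlr5 binds flagellin, all at the cell surface. Tlr3, Tlr7, Tlr8, Tlr9 and Tlr13 sense nucleic acids in endosomes, and Tlr12 acts with Tlr11 in sensing the profilin of Toxoplasma. The adaptors Myd88, Tirap, Ticam1 and Ticam2 carry the signal to NF-kappaB and interferon regulatory factors, which drive cytokine and chemokine genes. In the retina, microglia are the best known site of these receptors, and several have also been described in glial and vascular cells.

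Depth per library ranged from 17029536 to 33593428 recovered reads over the 27 mice, with a median of 30024568. The rod genes Gnat1, Pde6a, Pde6b and Sag, which mark the retina, were detected in every group. Normalized reads are counts divided by 1 size factor per mouse. SD is over the mice of a group, and differences on the log2 scale are of normalized reads plus a pseudocount of 1.

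Tlr12 is encoded on chromosome 4 by a single exon that no other annotated gene overlaps. The bases upstream of its start site are shown because Tlr12 is the receptor whose difference turned between the ages. For comparison, the stretch upstream of Tlr2 is shown, which was higher in OIR retinas at both ages. It is limited to bases before the earliest annotated start of that gene. Both are RefSeq promoter windows of build GRCm38.p6, on the minus strand, written 5′ to 3′. Capitals mark GGAAGT, an ETS core, in Tlr12 and, in Tlr2, GGGANTT and its reverse complement AANTCCC, the start of an NF-kappaB site, which overlap there.
Tlr12, chr4:128618620-128618869: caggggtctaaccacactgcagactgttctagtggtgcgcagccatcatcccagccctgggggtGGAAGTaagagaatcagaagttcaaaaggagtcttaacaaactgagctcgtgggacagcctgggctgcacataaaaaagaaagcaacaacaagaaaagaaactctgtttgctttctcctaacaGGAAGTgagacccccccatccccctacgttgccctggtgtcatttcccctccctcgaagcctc
Tlr2, chr3:83841768-83841858: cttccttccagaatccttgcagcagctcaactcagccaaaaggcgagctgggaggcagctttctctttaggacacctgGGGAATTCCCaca
In the windows of 250 bases before the start site, Tlr12 held GGAAGT at positions -186 and -63, counted from the start site, and Tlr2 held it at position -30, in the stretch that is not printed. Tlr2 held GGGANTT at positions -172 and, on the opposite strand, -169, which is 1 palindromic stretch. Both motifs were set in this form after the windows had been read. On both strands, 19.7% of all 32851 windows held GGAAGT and 14.4% held GGGANTT. Of the 10 receptor genes, 8 had an entry, with 10 windows in all, and GGAAGT occurred in 4 of these windows (Tlr1, Tlr2, Tlr6 and Tlr12). The bases right after the start in both Tlr6 windows were not found as a run in the transcripts of Tlr6 in the annotation used for gene lengths. Neither Tlr12 nor Tlr2 held ACGTG (16.6% of all windows) or GCGTG (28.2%), which are core letters of hypoxia response elements, GAGGAA (23.3%), the ETS core as in PU.1 sites, or TGANTCA of AP-1 (6.75%), and Tlr12 did not hold GGGANTT. That motif was found in the windows of Tlr2 and Tlr3, the AP-1 letters in that of Tlr9, ACGTG in that of Tlr1, and GAGGAA in those of Tlr1, Tlr9 and Tlr13. A match is a description of letters and not a site.

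Tlr12 was the second most highly expressed of the 10 receptor genes per length in nOIR p14 retinas, at 8.91 ± 5.26 normalized reads per kb (SD, n = 6), and the lowest of the 10 in OIR p14 retinas, at 0.202 ± 0.382 (SD, n = 6). In nOIR p14 mice, Tlr12 was at 6.11 normalized reads at the lowest, 28.2 at the median and 54.3 at the highest, from 181 reads in the group. In OIR p14 mice, 4 of 6 were at 0, another had 1 read and the last had 3 reads, so that the highest value was 3.03. Every OIR p14 mouse thus lay below every nOIR p14 mouse, as for 1.86% of all genes tested. The mouse S4 that was left out had 6.94 normalized reads and would not have changed this.

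At p17 the levels stood the other way round. In nOIR p17 mice, Tlr12 ranged from 0 to 15.9 normalized reads with a median of 5.04, and 1 of the 6 mice was at 0. In OIR p17 mice, it ranged from 6.40 to 90.9 with a median of 33.8. These groups overlapped, since the lowest OIR mice were below the highest nOIR mouse. The means were 28.3 ± 16.7 in nOIR p14, 0.641 ± 1.21 in OIR p14, 5.75 ± 5.48 in nOIR p17 (SD, n = 6 each) and 36.8 ± 28.9 normalized reads in OIR p17 (SD, n = 8).

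**Figure D1:**
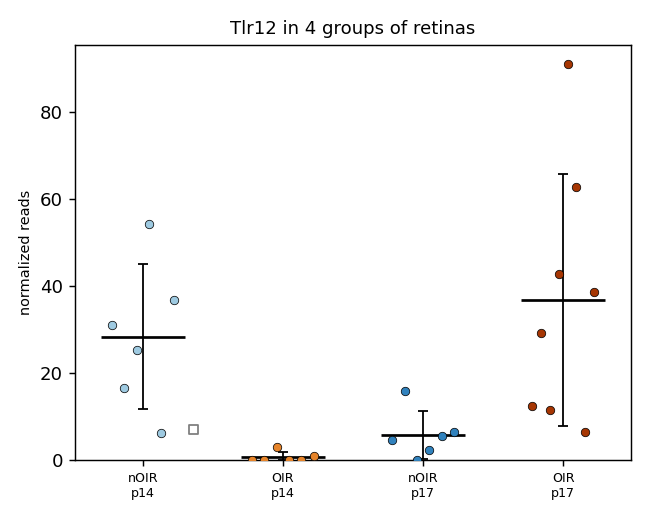
Normalized reads of Tlr12 (y axis) in each mouse of the 4 groups (x axis), with the mean as a horizontal line and the SD as bars cut off at 0; the open square is nOIR p14 mouse S4, which was left out. OIR p14 mice lie between 0 and 3.03, below all nOIR p14 mice, and OIR p17 mice lie between 6.40 and 90.9.

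On the log2 scale, Tlr12 was at -4.14 in OIR against nOIR mice at p14 and at 2.51 at p17. The values of the first difference depend on how 0 is treated, and it was -6.51 with a pseudocount of 0.1 and -5.20 from edgeR. Both controls and OIR mice contributed to the turn. Between p14 and p17, Tlr12 differed by -2.31 in nOIR retinas, where the groups overlapped, and by 4.33 in OIR retinas, where every p17 mouse was above every p14 mouse, as for 1.41% of all genes. The OIR p17 mean was 1.30 times the nOIR p14 mean, and the ranges of these groups, 6.40 to 90.9 and 6.11 to 54.3, overlapped widely. From highest to lowest, the order of means was OIR p17, nOIR p14, nOIR p17 and OIR p14. Neighbours in this order overlapped in their ranges in each case.

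Among the genes tested other than Tlr12, 18 were lower at p14 and higher at p17 by limma's adjusted p, and 1 gene was the other way round. The 18 genes included Higd1b and Rgs5, known as pericyte genes, and Cldn5, an endothelial tight junction gene. Ednra, an endothelin receptor, Ccdc80, which encodes a matrix protein, and Tgfbr2, a TGF-beta receptor, were also included. These descriptions were picked for mention after the values were seen. The rest were AU021092, Art3, Coro1a, Gm14127, Naalad2, Rflnb, Slc38a11, Slc40a1, Kcnj8, Abcc9, Aspn and Arhgef39. Kcnj8, Abcc9, Aspn and Arhgef39 are named below for their likeness to Tlr12, so that description rests in part on the same genes. None of the other receptors was among the 18.

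The pattern of Tlr12 over the mice was most like that of Kcnj8, with a Pearson r of 0.77 on the log2 scale over 26 mice. Of the 18998 genes whose mean reached 10 normalized reads, the next were Arhgef39 (r = 0.77), Abcc9 (r = 0.76), Aspn (r = 0.73) and Fut4 (r = 0.73). Kcnj8 and Abcc9 encode the pore and the sulfonylurea receptor subunit of a potassium channel of pericytes. The points of these correlations share libraries and groups. Within groups, after subtracting group means, r was 0.17 for Kcnj8, 0.18 for Abcc9, 0.14 for Aspn, 0.41 for Arhgef39 and 0.54 for Fut4, so the likeness of the first 3 lay mostly between the groups.

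Kcnj8 had 282.3 ± 38.1 normalized reads in nOIR p14, 90.1 ± 34.7 in OIR p14 and 259.3 ± 26.1 in nOIR p17 (SD, n = 6 each), and a mean of 523.4 in OIR p17 mice (n = 8). These 5 genes were picked for their likeness to Tlr12 in the same mice, so their differences are described without a test. On the log2 scale, OIR against nOIR mice differed by -1.72 at p14 and 0.99 at p17 for Kcnj8, by -1.47 and 1.36 for Abcc9, by -1.90 and 1.43 for Aspn, by -1.10 and 1.06 for Arhgef39, and by -1.85 and 0.89 for Fut4. Unlike Tlr12, Kcnj8 was at nearly the same mean in the nOIR groups of both ages.

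**Figure D2:**
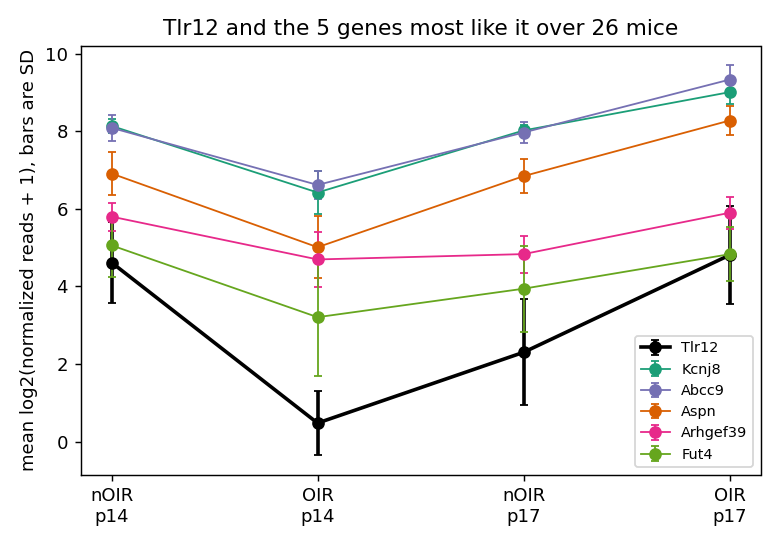
Mean log2(normalized reads + 1) with the SD over mice (y axis) of Tlr12 and the 5 genes with the highest Pearson r with it, in the 4 groups (x axis). Each gene has its lowest mean in OIR p14, and Tlr12 differs most, from a mean of 4.62 in nOIR p14 to 0.48 in OIR p14 on this scale.

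Pericyte markers were listed after these genes had been seen (Kcnj8, Abcc9, Atp13a5, Higd1b, Pdgfrb, Cspg4, Notch3, Rgs5, Vtn, Anpep), so they are described without a test. The median difference of these 10 was -1.15 at p14 and 1.34 at p17. Their summed level lay between 21202 and 26997 normalized reads in nOIR p14, 14180 and 20048 in OIR p14, 22957 and 33083 in nOIR p17, and 29787 and 42626 in OIR p17. Most of this sum was Vtn, with means of 20484, 14816, 26630 and 24288 normalized reads in these groups. Higd1b (r = 0.67) and Rgs5 (r = 0.67) ranked 18 and 19 in likeness to Tlr12 among the 18998 genes. Pdgfrb (r = 0.57), Anpep (r = 0.49) and Notch3 (r = 0.47) ranked 93, 301 and 407. Cspg4 (r = 0.43) and Vtn (r = 0.36) ranked 638 and 1193. Atp13a5 (r = 0.06) ranked 7068 and differed by -2.88 and -2.72 on the log2 scale at p14 and p17. The part of pericytes in the values of Tlr12 was not tested.

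Among the receptors of the cell surface, Tlr2 was upregulated in OIR mice at both ages. At p14, Tlr2 was at 0, 15.6 and 27.2 normalized reads in nOIR mice (lowest, median and highest) and at 47.9, 70.2 and 104.6 in OIR mice. At p17, the same values were 3.61, 9.76 and 30.8 in nOIR and 48.5, 86.0 and 120.1 in OIR mice. No OIR mouse overlapped with a control of its age. The left-out control S4 had 45.6 normalized reads, just under the lowest OIR p14 mouse. Tlr2 rose by 2.80 on the log2 scale at p14 (standard error 0.57, adjusted p = 0.00183) and by 2.89 at p17 (standard error 0.53, adjusted p = 0.000218), both from limma with Benjamini-Hochberg adjustment over all genes tested.

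Tlr4, the lipopolysaccharide receptor, was upregulated at p17 only by this test. In nOIR p17 mice, Tlr4 was at 5.41, 11.3 and 25.98 normalized reads (lowest, median and highest), and in OIR p17 mice at 38.2, 77.3 and 101.7, without overlap. Within the OIR p17 group, 3 mice lay between 38.2 and 38.7 normalized reads and the other 5 between 76.9 and 101.7. At p14, it was at 8.23, 15.9 and 31.4 in nOIR and 17.7, 34.3 and 56.5 in OIR mice, which overlapped. The log2 fold change was 2.31 at p17 (standard error 0.37, adjusted p = 2.85e-05), against 1.01 at p14 (standard error 0.39, adjusted p = 0.149). The difference between the ages was 1.30 (standard error 0.54) and did not pass over all genes (limma, adjusted p = 0.341), so the effects at p14 and p17 are not shown to differ.

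The exact permutation test (two-sided, of 18 run on the 9 receptors) gave p = 0.00216 for Tlr2 at p14 and p = 0.000333 for both Tlr2 and Tlr4 at p17, which are the smallest values that these group sizes allow. The p-values of these permutation tests are unadjusted. Over 26 mice, Tlr2 and Tlr4 had a Pearson r of 0.72, and r of Tlr12 with the other receptors ranged from -0.16 to 0.25. The points share libraries and groups, and within groups r of Tlr2 and Tlr4 was 0.27. Genes most like Tlr2 were H2-T23 (r = 0.86), Cbln3 (r = 0.85) and Dlgap5 (r = 0.85), and those most like Tlr4 were Acta2 (r = 0.86), Tmem123 (r = 0.86) and Ube2c (r = 0.85). Within groups, r was 0.49 for H2-T23, 0.66 for Cbln3 and 0.45 for Dlgap5 with Tlr2, and 0.45 for Acta2, 0.54 for Tmem123 and 0.46 for Ube2c with Tlr4.

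The partners of Tlr2 were expressed at a low level. Tlr1 and Tlr6, which are neighbouring and closely related genes on chromosome 5, so that reads may be split between them, had means of 1.00 to 9.20 and 3.99 to 8.08 normalized reads over the 4 groups. Tlr1 was at 9.20 ± 10.2 in OIR p17 mice (SD, n = 8), with 3 of 8 at 0, and at 1.00 ± 1.31 in nOIR p17 mice (SD, n = 6). The groups overlapped, and the log2 difference of 1.60 (standard error 0.80) was not called by limma (adjusted p = 0.232). Fitted to recovered reads, it was 3.02 in edgeR, which did not call it (adjusted p = 0.0874). In DESeq2 it was 3.18 and was called (adjusted p = 0.043). For Tlr6, the differences were 0.26 and 0.72, with standard errors of 0.94 and 0.88. Tlr5, the flagellin receptor, had means of 3.78 to 7.96 normalized reads and differences of 0.13 at p14 and 0.90 at p17, with standard errors of 0.92 and 0.86. None of the differences of Tlr5 or Tlr6 was called. Leaving out each mouse in turn, the p17 value ran from 0.37 to 1.07 for Tlr6 and from 0.55 to 1.28 for Tlr5.

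**Figure D3:**
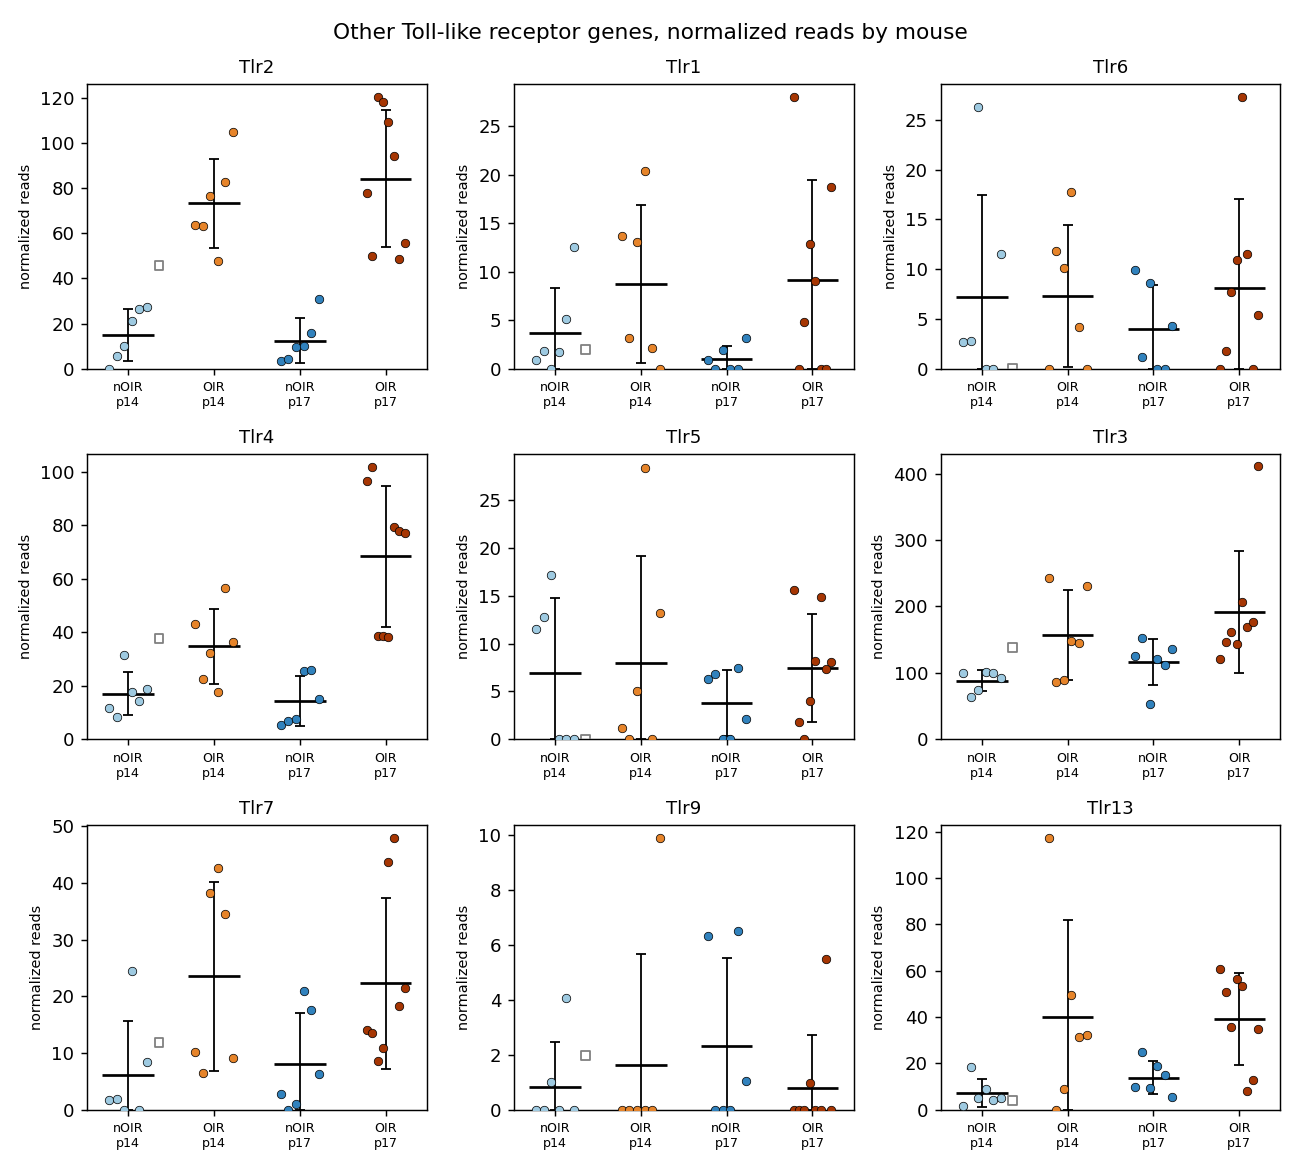
Normalized reads (y axis, each gene on its own scale) of the other 9 Toll-like receptor genes in each mouse of the 4 groups (x axis), with the mean as a horizontal line and the SD as bars cut off at 0; open squares are nOIR p14 mouse S4, which was left out. OIR mice lie apart from controls for Tlr2 at both ages and for Tlr4 at p17, while the groups overlap for the remaining genes.

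Among the endosomal receptors, Tlr3, the sensor of RNA duplexes, was the most highly expressed of the 10 genes per length in every group, from 16.96 ± 3.08 (SD, n = 6) normalized reads per kb in nOIR p14 to 36.9 ± 17.7 (SD, n = 8) in OIR p17. In nOIR p14 mice, it was at 63.1, 95.9 and 100.7 normalized reads (lowest, median and highest), and in OIR p14 mice at 85.9, 146.8 and 242.4. In nOIR p17 mice the values were 52.8, 122.7 and 151.9, and in OIR p17 mice 121.3, 165.0 and 411.5. The groups overlapped at both ages. Its differences of 0.73 at p14 (standard error 0.28, adjusted p = 0.144) and 0.69 at p17 (standard error 0.26, adjusted p = 0.0908) were not called by limma. In DESeq2 they were 0.83 and 0.73, and both were called (adjusted p = 0.0453 and 0.0449). The antisense gene Gm45542 overlaps Tlr3, and reads of the pair cannot be told apart where counting does not use the strand.

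Tlr7, a sensor of single-stranded RNA, was at a mean of 6.08 ± 9.55 normalized reads in nOIR p14 and 23.5 ± 16.6 in OIR p14 (SD, n = 6 each). It was at 0 in 2 of 6 nOIR p14 mice, and the highest control, at 24.5, lay within the OIR range of 6.44 to 42.6. At p17, nOIR mice ranged from 0 to 21.0 and OIR mice from 8.65 to 47.9. The log2 difference of 2.46 at p14 (standard error 0.76) was at the edge of the call (limma, adjusted p = 0.0502), and that of 1.91 at p17 (standard error 0.71) was not called (adjusted p = 0.0798). Fitted to recovered reads, the p14 difference was 1.91 in edgeR and 1.94 in DESeq2, and neither called it (adjusted p = 0.203 and 0.126). Of 26 limma fits that each left out 1 mouse, 8 called Tlr7 at p14 and 2 at p17 (without nOIR p17 mouse S4 or S5).

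Tlr13, the mouse sensor of bacterial ribosomal RNA, ranged from 1.78 to 18.3 normalized reads in nOIR p14 mice. In OIR p14 mice it ranged from 0 to 117.2, the widest range among the groups of this gene. At p17, it ranged from 5.31 to 24.9 in nOIR and from 8.26 to 60.7 in OIR mice. All of these groups overlapped with their controls. The log2 differences were 1.56 at p14 (standard error 0.74, adjusted p = 0.28) and 1.33 at p17 (standard error 0.70, adjusted p = 0.256). edgeR and DESeq2, fitted to recovered reads, gave 2.43 and 2.47 at p14 and called Tlr13 there (adjusted p = 0.0288 and 0.0036). Without OIR p14 mouse S2, the mouse at 0, limma called it too, with a log2 difference of 2.42.

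Tlr9, the sensor of CpG DNA, was barely detected, with 5 reads in all in nOIR p14, 12 in OIR p14, 15 in nOIR p17 and 7 in OIR p17, and 18 of 26 mice at 0. Its differences of 0.02 and -0.68 did not pass (adjusted p = 0.996 and 0.59), and no direction is read from them. Tlr8, the neighbour of Tlr7 on the X chromosome and not one of the 10 genes, was listed at 0 in all 12 nOIR mice. It was above 0 in 1 of 6 OIR p14 mice (10 reads) and in 3 of 8 OIR p17 mice (26 reads), and limma did not call it (adjusted p = 0.758 and 0.35).

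**Figure D4:**
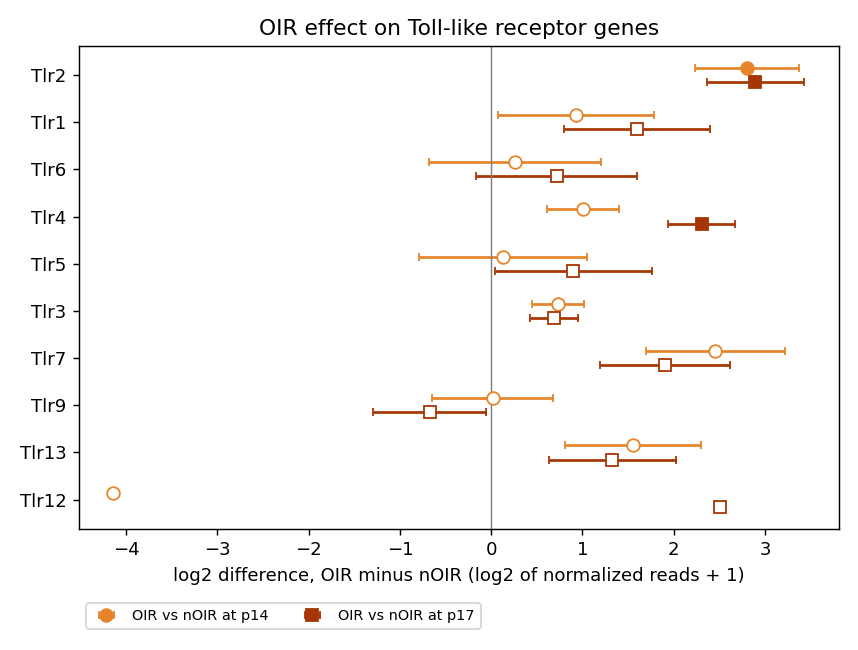
Log2 difference of OIR minus nOIR mice (x axis) for each receptor gene (y axis) at p14 (circles) and p17 (squares), with the standard error as bars; filled symbols passed an adjusted p under 0.05 by limma. Tlr12, for which the genes were chosen, is shown without an error bar or a call, at -4.14 and 2.51.

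Of the 9 receptors other than Tlr12, limma called 1 higher at p14 (Tlr2), where 3.18% of all genes tested were called higher, and 2 at p17 (Tlr2 and Tlr4), where 7.39% were. None was called lower, beside 2.91% of all genes at p14 and 5.12% at p17, and at an unadjusted p under 0.05 there were 5 receptors at p14 and 4 at p17, beside 17% and 23.3% of all genes. With the study's thresholds for differentially expressed genes (DEG), which ask for a log2 fold change beyond 2 in size as well as an adjusted p under 0.05, the counts were again 1 and 2, beside 0.744% and 1.9% of all genes upregulated. OIR mice lay above all controls for 1 receptor at p14 and 2 at p17, as they did for 1.91% and 3.9% of all genes. The median log2 difference of the 9 was 0.93 at p14, beside 0.02 for all genes, and 1.33 at p17, beside -0.02. edgeR called 2 higher at p14 (Tlr2 and Tlr13) and 2 at p17 (Tlr2 and Tlr4), beside 3.19% and 7.55% of all genes. DESeq2 called 3 higher at p14 (Tlr2, Tlr3 and Tlr13) and 4 at p17 (Tlr1, Tlr2, Tlr3 and Tlr4), beside 4.14% and 8.42%.

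With age, none of the 9 receptors was called between p17 and p14 in nOIR mice (0 with an unadjusted p under 0.05 by limma, edgeR or DESeq2, which called 0 as well), where 0.317% of all genes were called by limma and 7.37% had an unadjusted p under 0.05. In OIR mice, 0 were called by any of the 3 tools, with 1 at an unadjusted p under 0.05 in each, beside 5.91% of all genes called and 18.3% at an unadjusted p under 0.05 by limma. That gene in limma was Tlr4, which was higher at p17 by 0.95 (standard error 0.37, adjusted p = 0.14). For the difference of the OIR effect between the ages, 0 were called by limma, edgeR or DESeq2 and 1 had an unadjusted p under 0.05 in each, beside 1.58% of all genes called and 10.7% at an unadjusted p under 0.05 by limma.

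By limma, 3.18% of all genes tested were called higher and 2.91% lower at p14, and 7.39% and 5.12% at p17. Beside these shares, 3 of 15 microglia markers rose and 0 fell at p14, with a median of 0.21. At p17, 9 of the 15 rose and 0 fell, with a median of 0.97. Not called at p17 were, among others, P2ry12, Siglech and P2ry13, which are homeostatic microglia genes, at 0.03, -0.33 and -0.12. Their summed level ranged from 2973 to 4039 normalized reads in nOIR p14, 3536 to 4936 in OIR p14, 2525 to 2990 in nOIR p17 and 4755 to 8549 in OIR p17, and no marker was at 0 throughout a group. With the log2 of this sum as a covariate, the p17 differences were 2.29 for Tlr2 and 2.57 for Tlr4, with adjusted p = 0.348 and 0.104 from limma. The sum did not overlap between the p17 groups, so that fit cannot tell it apart from OIR. Of 7 macrophage and monocyte markers tested, 6 rose and 1 fell (Lyve1) at p17, and 0 were called at p14 by limma, edgeR or DESeq2 (1 at an unadjusted p under 0.05 by limma). Of 6 endothelial markers, 1 rose (Pecam1) and 1 fell (Cldn5) at p14, with a median of -0.36, and 4 rose at p17, with a median of 1.08. The blood markers, which are globin genes, rose in 3 of 3 at p17. Of 4 neutrophil, 4 B cell and 5 dendritic cell markers tested, limma called 1 each at p17, which rose (S100a8, Cd79b and Itgax). In the same lists, edgeR called 0, 1 and 2, and DESeq2 called 1, 2 and 2. Of 5 Müller glia markers, Gfap rose and Rlbp1, Glul and Aqp4 fell at both ages. Of the rod genes named above, Gnat1 and Pde6a fell at p14, and Pde6a, Pde6b and Sag fell at p17. Of 5 lens markers, 0 were called by limma, edgeR or DESeq2 at either age, with medians of 1.47 and 1.66. Lens reads remained in the mice used, with a summed level of up to 19040 normalized reads in nOIR p14 and 6450 in OIR p14. At p17 this sum reached 11400 in nOIR and 33244 in OIR mice. The part of these cell types in the receptor values was not tested further.

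The other genes of the receptor pathway were read from lists by role. Of 71 genes tested, 14 rose and 1 fell at p14 (21.1% called, beside 6.09% of all genes), and 27 rose and 1 fell at p17 (39.4%, beside 12.5%). With the microglia covariate, the genes called at p17 numbered 11 instead of 28. The median difference was 0.28 at p14 and 0.53 at p17.

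Among 5 adaptors, 2 rose at p14 and 4 at p17, with medians of 0.60 and 0.87. Myd88, the adaptor of most receptors, rose by 0.87 at p17 (adjusted p = 2.01e-05), and its p14 value of 0.36 did not pass (adjusted p = 0.171). Tirap, which bridges Tlr2 and Tlr4 to Myd88, rose by 0.82 and 0.69 at the 2 ages (adjusted p = 0.00289 and 0.00339), and Ticam1, the adaptor of Tlr3, rose by 1.16 at p17 (adjusted p = 0.000135). Ticam2, which serves Tlr4, rose by 3.10 and 3.81 (adjusted p = 0.00153 and 1.53e-05), but its gene model overlaps that of Tmed7 on the same strand, and reads may be split between them.

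Of 6 co-receptors, 1 rose at p14 and 3 at p17, with medians of 0.30 and 1.08. Cd14, which hands lipopolysaccharide to Tlr4, had 26.7 ± 11.7 normalized reads in nOIR p14 and 103.8 ± 47.7 in OIR p14 (SD, n = 6 each). It rose by 1.85 on the log2 scale at this age (adjusted p = 0.000454) and by 1.39 at p17 (adjusted p = 0.00194). Cd180, a relative of Tlr4, and its partner Ly86 rose by 2.53 and 1.59 at p17 (adjusted p = 0.00192 and 3.38e-07). Of 5 trafficking chaperones, 2 rose at p17, and at p14 0 were called by limma, edgeR or DESeq2 (1 at an unadjusted p under 0.05 by limma), with medians of -0.09 and 0.29. Unc93b1, which brings the endosomal receptors to their compartment, had 89.7 ± 28.1 normalized reads in nOIR p17 (SD, n = 6) against 324.9 ± 67.8 in OIR p17 (SD, n = 8). It rose by 1.89 at p17 (adjusted p = 1.18e-08) and more than at p14, by 1.60 (adjusted p = 0.000959). Between p14 and p17, it differed by 0.91 in OIR and -0.69 in nOIR retinas (limma, adjusted p = 0.00235 and 0.192).

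Of 14 kinases and ubiquitin ligases, 0 were called at p14 by limma, edgeR or DESeq2 (2 at an unadjusted p under 0.05 by limma) and 2 rose at p17, namely Irak4 by 1.22 and Irak1 by 0.35 (adjusted p = 0.0101 and 0.0303), with medians of 0.06 and 0.08. Of 9 transcription factors, 2 rose at p14 and 6 at p17, with medians of 0.36 and 0.96. Irf8, a factor of myeloid cells, rose by 1.17 and 1.84 (adjusted p = 0.000335 and 2.1e-08). At p17, Irf7 rose by 1.52, Relb by 1.96 and Nfkb2 by 1.69 (adjusted p = 1.08e-08, 8.32e-07 and 2.96e-06). The OIR effect on Irf7 and Relb was larger at p17 than at p14 (limma, adjusted p = 0.00263 and 0.0157). Between p14 and p17, Irf7 differed by 0.99 in OIR and -0.18 in nOIR retinas (limma, adjusted p = 6.62e-05 and 0.917). Relb differed by 0.60 in OIR and -0.99 in nOIR retinas, and neither was called (limma, adjusted p = 0.18 and 0.131).

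Of 10 inhibitors, limma called 1 at p14, which was lower, and 3 at p17, of which 2 rose and 1 fell, with medians of -0.07 and 0.37. DESeq2 called 2 and 4, and edgeR 1 and 3. Tnfaip3, which encodes the deubiquitinase A20, fell by 0.45 and then 0.43 (adjusted p = 0.0132 and 0.00485), and Sigirr rose by 1.81 at p17 (adjusted p = 0.00293). Of 10 genes for endogenous ligands, 1 rose at p14 and 3 at p17, with medians of 0.34 and 0.43. Bgn, the matrix proteoglycan biglycan, had 93.2 ± 18.3 normalized reads in nOIR p17 (SD, n = 6) against 1032 ± 137 in OIR p17 (SD, n = 8), a log2 fold change of 3.47 (adjusted p = 3.48e-13). Fn1, or fibronectin, rose by 1.12 and 2.00 (adjusted p = 0.00208 and 4.6e-08), and S100a8, also a neutrophil marker, by 2.03 at p17 (adjusted p = 0.0138).

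Of 14 target cytokines and chemokines, 11 passed the filter, of which 8 rose at p14 and 5 at p17, with medians of 3.20 and 1.46. Tnf was listed at 0 in all 6 nOIR p14 mice and had 34.1 ± 15.3 normalized reads in OIR p14 mice (SD, n = 6), which was at least 71.1-fold higher against a floor of 3 reads over the control group. At p17, its mean was 0.368 ± 0.900 in nOIR (SD, n = 6) and 8.08 ± 7.49 in OIR mice (SD, n = 8). With genes at 0 in all controls set to such a bound, the medians were 3.20 and 1.88. Ccl2 had 1.07 ± 1.81 normalized reads in nOIR p14 and 76.1 ± 20.4 in OIR p14 (SD, n = 6 each), a rise of 5.56 on the log2 scale, beside one of 5.55 at p17 (adjusted p = 3.61e-08 and 1.13e-09). Ccl3 rose by 4.22 and 4.33, and Ccl4 by 5.95 and 4.26. Between p14 and p17 in OIR mice, 5 of the 11 fell and 0 rose by limma, beside 5.91% of all genes called in either direction. For the difference of the OIR effect between the ages, limma called 0 of the 11, beside 1.58% of all genes.

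**Figure D5:**
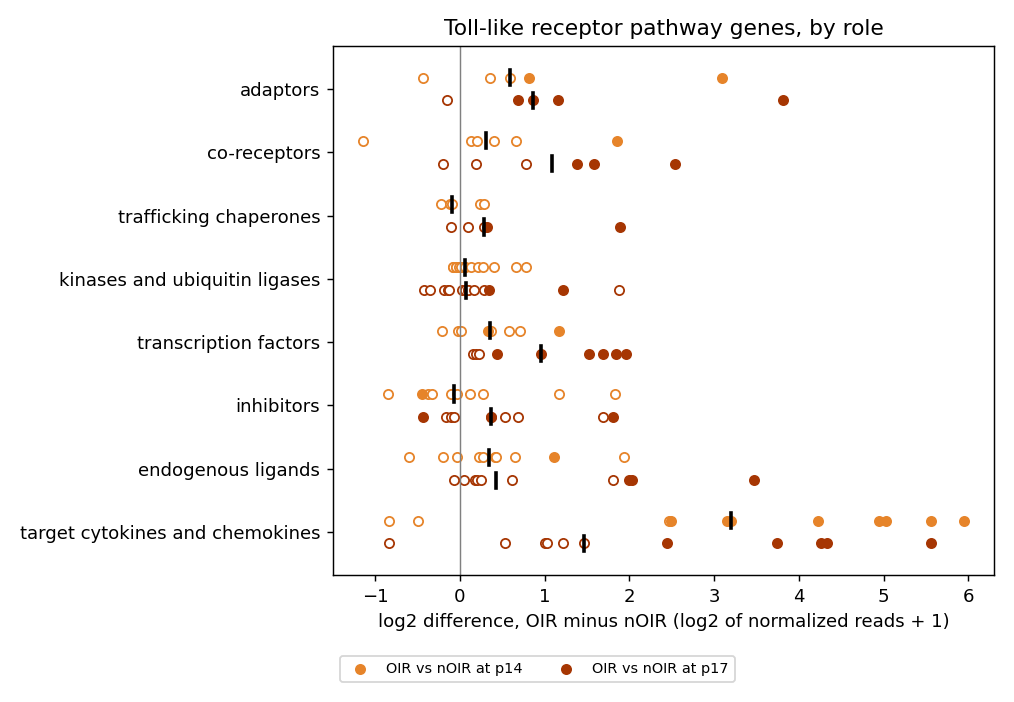
Log2 difference of OIR minus nOIR mice (x axis) of each pathway gene, by role (y axis), at p14 (upper row of each role) and p17 (lower row); filled points passed an adjusted p under 0.05 by limma, and vertical marks are medians. Target cytokines and chemokines have the highest median at p14, at 3.20. The medians of transcription factors and co-receptors are 0.36 and 0.30 at p14 and 0.96 and 1.08 at p17.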

How the data were processed

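Whole retinas of 27 mice were sequenced, 1 library per mouse. Per the methods and the submitters' processing notes, the authors aligned reads with STAR 2.7.8a, counted them with featureCounts 2.0.1 on Gencode M28 genes and deposited a signal of normalized reads, that is counts divided by DESeq2 1.34 size factors. The deposited table also holds the authors' group means, log2 fold changes and adjusted p-values, which were not used. Dividing by the step of each mouse gave whole reads for 100% of the values (tolerance 0.01 reads). They count reads, not molecules, since no molecular identifiers are stated.

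Groups are treatment by age, without nOIR p14 mouse S4. Limma 3.58.1 (R 4.3.3, eBayes with a trend) was fitted to log2(normalized reads + 1) in the 4 groups at once, over genes with a mean of at least 1, with Benjamini-Hochberg adjustment over all genes and a call at an adjusted p under 0.05. Exact permutation tests, ranges and correlations were computed in Python 3.11.15 (scipy 1.17.1, numpy 2.4.6, pandas 2.3.3). Limma was tested on simulated data with 1 shared spread for all genes, where 200 genes differed by 3 on the log2 scale at p14. It called 100% of these and 19 others, and 0 genes where none differed. Smaller differences were not simulated, nor differences in genes as low as Tlr1, Tlr5, Tlr6 and Tlr9. Alternatives were a pseudocount of 0.1, all genes, a mean of at least 10, S4 included, the compared groups alone, a block for equal mouse numbers, an equal total per mouse, quantiles, the quasi-likelihood test of edgeR 4.0.16, DESeq2 1.42.0, covariates (microglia markers, Xist, Cryaa) and leaving out each mouse.

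All 10 receptors are named, with up to 4 genes of each pathway list by smallest adjusted p, the 5 genes most like Tlr12 and the 3 most like each other receptor, of which not all are printed. The members, lists and tests were chosen with earlier results of these data known, and the pericyte list and the motifs GGAAGT and GGGANTT after values or windows were seen. Pairs of mice in a group were no copies (chi-square of at least 9.39 per degree of freedom). Gene lengths, overlaps and chromosomes come from GENCODE M21 (GRCm38), matched by symbol, and the files use Gencode M28, so no other coordinates are given. Promoters are from RefSeq.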

Additional observations from a re-analysis of the deposited data

Results flagged for a closer look

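The values of 10 receptors in 4 groups made 40 groups of 6 to 8 mice. In 4 of these, a mouse had a gap to the next value that was large for the range of its group. Gaps were taken on the log2 scale, against Dixon's 95% critical value. Chance flags about 1 in 20 groups, a rate that does not hold where most mice are at 0. Tlr3 was lowest in nOIR p17 mouse S3, at 52.8 normalized reads. Tlr3 was highest in OIR p17 mouse S8, at 411.5 normalized reads. Tlr9 was highest in OIR p14 mouse S6, at 9.88 normalized reads. This was the only mouse of that group above 0, so its gap had to equal the range. Tlr9 was highest in OIR p17 mouse S7, at 5.49 normalized reads, in a group with 6 of 8 mice at 0.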

How the results depend on the processing

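Over 13 alternatives other than leaving out mice, 230 values kept their direction and side of the threshold, 8 passed it newly, 2 no longer passed it, 9 reversed and 3 values of Tlr12 moved. The receptors called at p14 numbered 2 rather than 1 with a mean of at least 10, with the replicate block, with the same total per mouse and with edgeR, and 3 with DESeq2. At p17 they numbered 0 rather than 2 with the microglia covariate, where the median of all genes moved to 0.18, and 4 with DESeq2. Pathway genes called at p17 fell from 28 to 11 with that covariate. Tlr7 at p14 was called with a mean of at least 10 (adjusted p = 0.0432), with the same total per mouse (0.0465) and with the replicate block (0.0291), all from limma. Reversed values were small or of low genes, except under the microglia covariate. At p14, Tlr5 was -0.0556 with the replicate block and Tlr6 -0.40 with the microglia covariate. Tlr9 at p14 was -0.37 with a pseudocount of 0.1, -0.13 with S4, -0.0032 after quantile normalization, -0.0688 with Xist and -0.12 with Cryaa as covariates. At p17, Tlr6 was -2.09 and Tlr3 -0.72 with the microglia covariate. Tlr12 at p14 was -6.51 with a pseudocount of 0.1, -5.20 with edgeR and -5.44 with DESeq2. The cause of these shifts was not tested. Mouse numbers did not pair the samples (34 pairs, deviations with r from -0.11 to 0.16, 4 over 0.1), so the block shares only a number. With each mouse left out in turn, 1 to 3 receptors were called at p14, 2 to 3 at p17, and 0 to 0 in each of the other 3 comparisons. The count at p14 was 2, Tlr2 and Tlr7, without nOIR p14 mouse S5 or S7, nOIR p17 mouse S2, S3, S4 or S5, or OIR p14 mouse S6, and 3, with Tlr13 as well, without OIR p14 mouse S2. The log2 fold change of Tlr2 stayed between 2.12 and 3.09 at p14 and 2.65 and 3.20 at p17, and that of Tlr4 at p17 between 2.10 and 2.52. Among these fits, the p14 difference of Tlr5 ran from -0.43 to 0.58, of Tlr6 from -0.15 to 0.81 and of Tlr9 from -0.56 to 0.37, and the p17 difference of Tlr9 from -0.99 to -0.32. Tlr9 had no read in 18 of 26 mice, which limits what can be read from its values.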
